A study of Mus musculus with 8 samples.

Results

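The Id proteins and the bone morphogenetic protein (BMP) pathway that drives their genes were followed in secondary neurospheres with and without FoxO3. The 10 genes were the Id family (Id1, Id2, Id3 and Id4), the ligands Bmp2, Bmp4 and Bmp7, the inhibitory Smads Smad6 and Smad7, and Nog, which encodes noggin. Every probe set that the platform annotation gives to 1 of these symbols was taken, which gave 17 of the 45037 probe sets tested on the array. Neurospheres are clusters that neural stem cells and progenitors form in suspension, here from mouse forebrain, and the series asks what FoxO3 does in maintaining such cells in the adult. The wild type group carried FoxO3+/+ and the null group FoxO3-/-, both on the FVB/N strain. Cells of each were dissociated, plated at 50000 cells/ml with the mitogens EGF and bFGF (each at 20 ng/ml) and harvested after 6 days. No BMP was named among the additions in either group. There were 8 arrays, 4 of each genotype, in set 1 and set 2 with 2 arrays of each genotype in each. The labels do not give the mice's age, what a set is, which part of Foxo3 is deleted, or whether the paired arrays are separate cultures or mice. The p-values therefore cover the spread among these 8 arrays alone, and that spread may be technical.

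BMPs bind pairs of type I and type II receptor kinases, which phosphorylate Smad1, Smad5 and Smad9, and these enter the nucleus with Smad4. Id genes are the best known direct targets. Id proteins are helix-loop-helix proteins with no DNA-binding region that pair with E proteins and so keep proneural and oligodendrocyte bHLH factors off DNA. In the adult forebrain, Id proteins keep neural stem cells undifferentiated, BMPs favour quiescence and the astrocyte fate, and noggin binds BMPs outside the cell and blocks them. Smad6 and Smad7 are made in response to the pathway and damp it from inside.

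The upstream sequences of 3 Id genes are shown as a description. Whether their letters bear on the differences between genotypes was not tested. RefSeq promoters (GRCm38.p6) matched 5 of the 10 genes (Id2, Id3, Id4, Bmp4 and Smad6); Id1, Bmp2, Bmp7, Smad7 and Nog were not matched. The 250 bases before each start were searched on both strands for GGCGCC, a GC-rich Smad element, GTCTAGAC, the palindromic Smad-binding element, CAGAC, the shorter Smad element, and TGTTTAC, the FoxO site. Capitals mark every match of these motifs.
Id2, chr12:25096093-25096342, strand -: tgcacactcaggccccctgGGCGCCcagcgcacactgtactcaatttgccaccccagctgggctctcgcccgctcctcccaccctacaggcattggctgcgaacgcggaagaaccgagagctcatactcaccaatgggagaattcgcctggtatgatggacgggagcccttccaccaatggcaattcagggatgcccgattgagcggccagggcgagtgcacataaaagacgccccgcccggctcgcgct
Id4, chr13:48260866-48261115, strand +: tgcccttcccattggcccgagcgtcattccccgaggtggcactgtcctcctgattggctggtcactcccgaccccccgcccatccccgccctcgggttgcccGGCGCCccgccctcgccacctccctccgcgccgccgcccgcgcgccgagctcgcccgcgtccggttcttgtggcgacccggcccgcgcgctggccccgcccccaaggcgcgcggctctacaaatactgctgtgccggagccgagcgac
Id3, chr4:136143572-136143821, strand +: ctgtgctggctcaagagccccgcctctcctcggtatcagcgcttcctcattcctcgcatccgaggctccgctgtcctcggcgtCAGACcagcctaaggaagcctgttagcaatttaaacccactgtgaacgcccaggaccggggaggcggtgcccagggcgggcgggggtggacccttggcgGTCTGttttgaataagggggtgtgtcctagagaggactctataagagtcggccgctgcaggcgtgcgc
Id2 and Id4 each held 1 GGCGCC, which 9.59% of the 32851 promoters of this length in the table hold. Id3 held 2 matches of CAGAC, present in 42.2% of promoters. GTCTAGAC (0.167% of promoters) and TGTTTAC (3.17%) had no match in these 5 windows, and no motif matched in those of Bmp4 and Smad6. A match is a description of the letters and not a binding site.

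Foxo3 itself served as a check of the labels. Its brightest probe set averaged 10.20 ± 0.14 in wild type and 9.03 ± 0.12 in null arrays (log2, SD, n = 4 each), and the 4 null arrays lay below the 4 wild type arrays. A second probe set differed by -1.07 (limma adjusted p = 0.0021), and the third by 0.33 (adjusted p = 0.110), higher in null arrays; where these lie relative to the deletion is not given in the labels. Array medians lay between 6.27 and 6.31, and no array stood apart from its partner of the same set and genotype (correlation 0.997 to 0.998). The sets differed widely: 38.4% of probe sets differed between set 1 and set 2 (limma with Benjamini-Hochberg adjustment), so set was a term of the comparison. Among cell type markers, Mog, Mbp, S100b and Sox10 were higher in set 2 (6.02, 4.61, 3.26 and 2.05-fold). So were Prom1 and Pdgfra (2.19 and 2.13-fold). Hes5, Sox2 and Nes were lower (0.389, 0.826 and 0.865-fold), and Olig1, Slc1a3 and Aldh1l1 did not pass (1.05, 1.07 and 1.02-fold). The part of these differences in the results of set 2 was not tested. All 9 measured markers of neural stem and progenitor cells were above the median level of the array, while 5 of 6 microglial and 4 of 5 endothelial markers were below it. All 7 measured oligodendrocyte lineage markers and 6 of 7 astrocyte markers were above it too, so this level does not set stem cells apart from glia. As RMA values have no zero, no marker can be called absent. None of the 10 genes lies on chromosome 10, which carries Foxo3.

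Over both sets, the change among these genes was in Id2, a family member known for holding back oligodendrocyte and neuronal differentiation. It was lower in FoxO3 null spheres in 2 of its 3 probe sets. Id4 was higher in set 2 only by the test within that set, while Id1, Id3, the ligands, the inhibitory Smads and Nog did not pass. Of the 17 probe sets 2 passed at an adjusted p under 0.05, both lower, beside 0.802% of all probe sets (0.586% lower and 0.215% higher). Both belong to Id2, so this is 1 gene of 10. Groups of 4 did not overlap at 3 of the 17 probe sets, beside 3.11% of all. Within each set alone, both null arrays were below both wild type arrays at 2 probe sets (both Id2; 5.25% of all) and above them at 2 (Id4 1423260_at and Smad6; 6.67% of all).

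Id2 (chromosome 12, 25093799 to 25096092, GRCm38.p6), whose upstream sequence is printed first above, read 10.33 and 10.07 in the wild type arrays of set 1 and 10.47 and 10.11 in those of set 2 at probe set 1435176_a_at (log2 level). The FoxO3 null arrays read 9.42 and 9.45 in set 1 and 9.68 and 9.87 in set 2. Each null array was thus below each wild type array, which held for 1.33% of all probe sets. The level fell by 0.64 ± 0.10 on the log2 scale (SE, n = 4 each, limma adjusted p = 0.0172), to 64.1% of wild type. The difference was -0.77 in set 1 and -0.52 in set 2. Neither passed within its set (adjusted p = 0.0526 and 0.124), and the difference between sets was within the spread (interaction adjusted p = 0.837). In bulk RNA, fewer cells that express a gene and less RNA per cell cannot be told apart.

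The other bright probe set of Id2, 1422537_a_at, moved the same way by a smaller amount. Wild type arrays read 8.71 and 8.72 in set 1 and 9.36 and 9.22 in set 2, and null arrays 8.30 and 8.39, then 8.996 and 8.93. In each set both null arrays were below both wild type arrays, and the groups overlapped only across sets, because set 2 was higher by 0.60 ± 0.06. This probe set fell by 0.35 ± 0.06 (SE, limma adjusted p = 0.0210), to 78.3% of wild type, with differences of -0.38 in set 1 and -0.33 in set 2 that did not pass within a set (adjusted p = 0.135 and 0.118). From low to high the groups ran null set 1, wild type set 1, null set 2, wild type set 2, with no overlap between neighbours. At 1435176_a_at the order was null set 1, null set 2, wild type set 1, wild type set 2, and the last pair overlapped. The third probe set, 1453596_at, was dim (4.73 to 5.24, percentile 19.0 of all probe sets) and differed by -0.04 ± 0.09 (adjusted p = 0.903). Its 95% interval was -0.24 to 0.15.

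The Id2 calls rest on small margins. Without wild type array 1_1, wild type 2_1, null 1_2 or null 2_1 the adjusted p of 1435176_a_at was 0.0669, 0.0772, 0.0532 or 0.0628, and 1422537_a_at passed only without wild type 2_2 (0.0300) among the 8 fits that leave out 1 array (0.0502 to 0.0932 in the others), while both stayed lower in all of them. When the 2 arrays of a pair were averaged first, limma gave adjusted p of 0.0737 and 0.168, and without moderation of the variances 0.234 and 0.165, so both calls were lost there too.

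**Figure D1:**
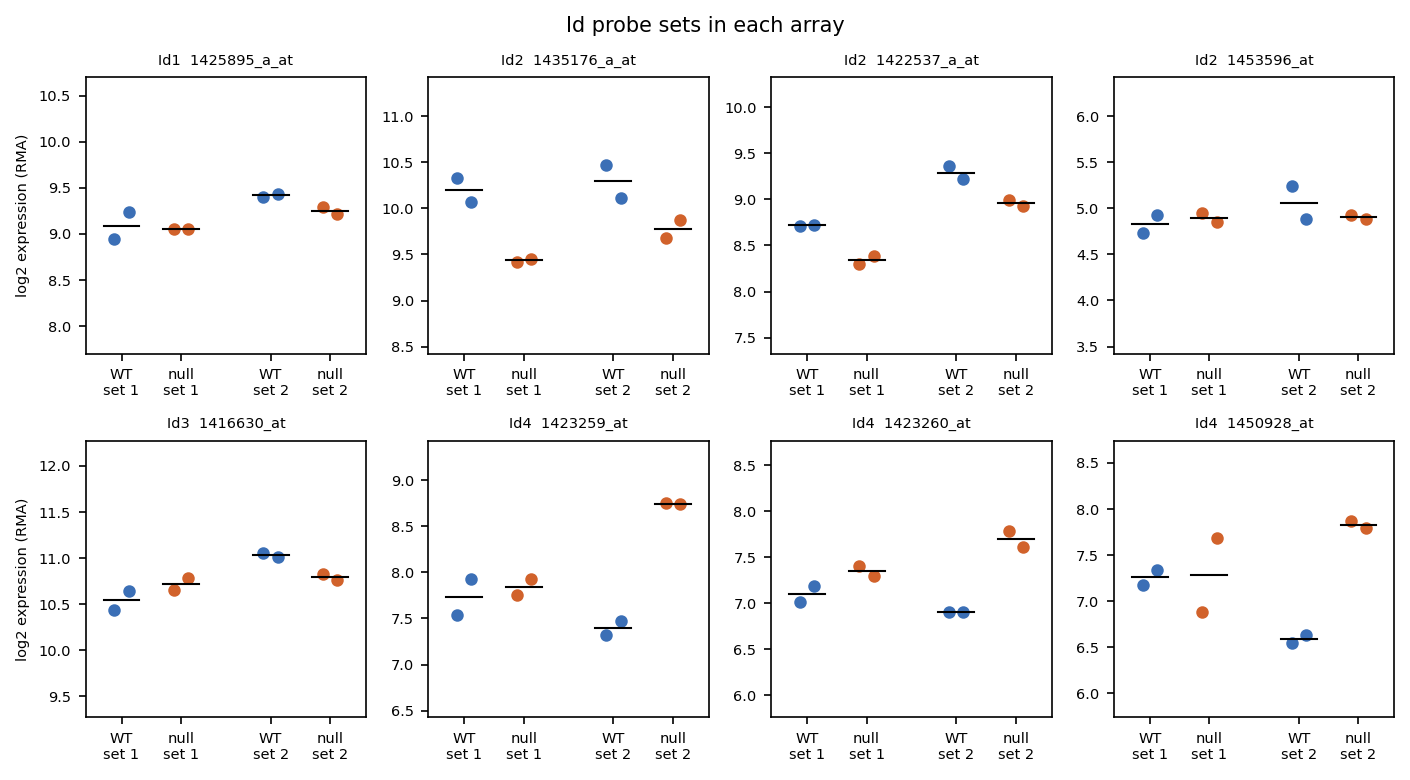
Level of the 8 Id probe sets in each array (y axis, log2 expression by RMA; every panel spans the same range) by set and genotype (x axis); points are single arrays, wild type (WT) in blue and FoxO3 null in orange, and lines are means of 2 arrays. Null arrays are below wild type in both sets at the 2 bright Id2 probe sets, and the null arrays of set 2 stand above the rest at the 3 Id4 probe sets.

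Id4 (chromosome 13, 48261116 to 48266028), a family member expressed in radial glia and adult stem cells, had positive differences in all 3 of its probe sets. At 1423259_at the wild type arrays read 7.54 and 7.93 in set 1 and 7.32 and 7.48 in set 2, and the null arrays 7.75 and 7.92, then 8.75 and 8.74. The null arrays of set 2 were the high ones, and in set 1 the genotypes overlapped. Over both sets the log2 difference was 0.73 ± 0.21 (SE) and did not pass (limma adjusted p = 0.171). Within set 2 the probe set rose by 1.35, a 2.54-fold higher level (adjusted p = 0.00211), and within set 1 the difference was 0.11 (adjusted p = 0.896). The difference between the sets, 1.24, was just outside the threshold (interaction adjusted p = 0.0506), where 0.0688% of all probe sets passed.

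The remaining probe sets of Id4 behaved alike in set 2. Probe set 1423260_at read 7.01 and 7.18 in wild type set 1, 6.90 and 6.91 in wild type set 2, 7.41 and 7.30 in null set 1 and 7.78 and 7.62 in null set 2. Here the 4 null arrays were above the 4 wild type arrays, as in 1.78% of all probe sets. Its difference of 0.52 ± 0.10 missed the threshold over both sets (limma adjusted p = 0.0529); it was 0.25 in set 1 (adjusted p = 0.447) and 0.79 in set 2 (adjusted p = 0.00539). With each array centred on its median it passed (adjusted p = 0.0474), as it did after a renewed quantile normalization (0.0464). Of its 21 alternative fits 7 passed. Among the 8 that leave out 1 array, 1 passed (limma adjusted p of 0.0351 to 0.183 over the 8).

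Probe set 1450928_at read 7.18 and 7.34 in wild type set 1, 6.55 and 6.63 in wild type set 2, 6.88 and 7.69 in null set 1 and 7.87 and 7.79 in null set 2. The null pair of set 1 was far apart and straddled its wild type pair. The difference was 0.63 ± 0.23 over both sets (adjusted p = 0.290), 0.02 in set 1 and 1.24 in set 2 (adjusted p = 0.0252). The difference between the sets, 1.21, did not pass (interaction adjusted p = 0.264). It was 1.61 without null array 1_2 and 0.81 without null array 1_1, fits that leave 1 null array in set 1. Over both sets the probe set passed in 1 of the 8 fits that leave out 1 array. That fit was without null array 1_1 (limma adjusted p = 0.0302, up to 0.575 in the others).

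Within set 2 these 3 probe sets were the members that passed, beside 0.910% of all probe sets (0.415% higher), and within set 1 none of the 17 did, beside 0.284%. Leaving out 1 array kept the set 2 call of 1423259_at in all 8 fits (adjusted p at most 0.0340). The call of 1423260_at was lost without wild type 2_1 or null 2_1 (0.0581 and 0.0548). That of 1450928_at was lost without any of the 4 wild type arrays or either null array of set 2 (0.0604 to 0.188). In level, Id4 ran from wild type set 2, the lowest, through wild type set 1 and null set 1, which overlapped at 1423259_at and 1450928_at, to null set 2, the highest.

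Signals of other genes moved with these results. Averaged over 3 Y-linked genes (Eif2s3y, Kdm5d and Uty, of which Uty passed as lower), the signal was 8.35 and 8.18 in wild type and 7.90 and 8.09 in null arrays of set 1, and 7.80 and 7.66 in wild type and 6.88 and 7.10 in null arrays of set 2 (log2), so the arrays with the highest Id4 had the lowest Y-linked signal. Among wild type arrays, however, set 2 was lower than set 1 in both. With this mean as a covariate the Id4 differences were -0.18 ± 0.26, 0.04 ± 0.11 and -0.03 ± 0.41 (SE, adjusted p of 0.978 or more), and those of Id2 were -0.61 ± 0.20 and -0.35 ± 0.11 (adjusted p = 0.568 and 0.560). In that fit 0 of the 45037 probe sets passed, those of Foxo3 included, so the lost Id2 calls are not particular to Id2. The mean was itself lower in null arrays in each set (differences of -0.27 and -0.74), so the covariate and the genotype share part of their variation.

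Of 9 measured neural stem and progenitor markers 0 passed between genotypes. Nes, Sox1, Prom1 and Fabp7 had positive differences (0.29, 0.09, 0.02 and 0.0003), with limma adjusted p = 0.0567 for Nes. Those of Sox2, Msi1, Hes5, Pax6 and Vim were negative (-0.26, -0.28, -0.29, -0.18 and -0.03). The summed level overlapped, at 15.61 to 15.67 in wild type and 15.55 to 15.64 in null arrays. Some markers of other cell types did differ between genotypes, beside 1.12% of all genes that passed. Of 7 oligodendrocyte lineage markers 3 fell over both sets, Sox10 (-0.27) and the progenitor markers Pdgfra (-0.67) and Cspg4 (-0.56). The myelin gene Mbp went the other way: it rose by 0.87 within set 1 (limma adjusted p = 0.00929), with 0.01 in set 2 and 0.44 over both sets (adjusted p = 0.238). Mog, also a myelin gene, differed by 0.24 (adjusted p = 0.471). The summed level of the list overlapped, from 14.68 to 15.36 in wild type and 14.82 to 15.39 in null arrays (log2). Of 7 neuronal markers Gad1, the brightest, fell (-0.91), and the others did not pass. Dcx and Snap25 had negative differences (-0.28 and -0.35). Those of Tubb3, Rbfox3, Syt1 and Slc17a7 were positive (0.10, 0.15, 0.07 and 0.02). The summed level, in which Gad1 weighs most, was 9.82 to 10.22 in wild type and 9.47 to 9.61 in null arrays. Of 7 astrocyte markers Slc1a2 fell (-0.84), and the others did not pass. Aqp4, S100b, Slc1a3 and Gjb6 had negative differences (-0.32, -0.20, -0.06 and -0.02). Those of Gfap and Aldh1l1 were positive (0.20 and 0.06). The summed level overlapped, at 13.91 to 14.17 in wild type and 13.90 to 14.07 in null arrays.

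Of 5 choroid plexus and ependyma markers Otx2 fell, by 0.93 (limma adjusted p = 0.0042), while Ttr, the main product of the choroid plexus, differed by 0.06 (adjusted p = 0.764). Foxj1 and Aqp1 had positive differences (0.12 and 0.21) and Kl one of -0.02, and none of them passed. The summed level of that list, which includes Otx2, was 9.28 to 9.64 in wild type and 9.06 to 9.40 in null arrays. Its differences were -0.22 in set 1 and -0.23 in set 2. Mural and fibroblast markers summed to 10.16 to 10.81 in wild type and 10.92 to 11.10 in null arrays. That difference lay in Acta2, a smooth muscle actin gene, which rose by 0.83 within set 2 (adjusted p = 0.0258) and did not pass over both sets (0.48, adjusted p = 0.173). The other 6 (Pdgfrb, Rgs5, Col1a1, Col1a2, Dcn and Lum) were below the median level and differed by -0.10 to 0.04. The part of these cell types in the Id2 and Id4 differences was not tested.

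**Figure D2:**
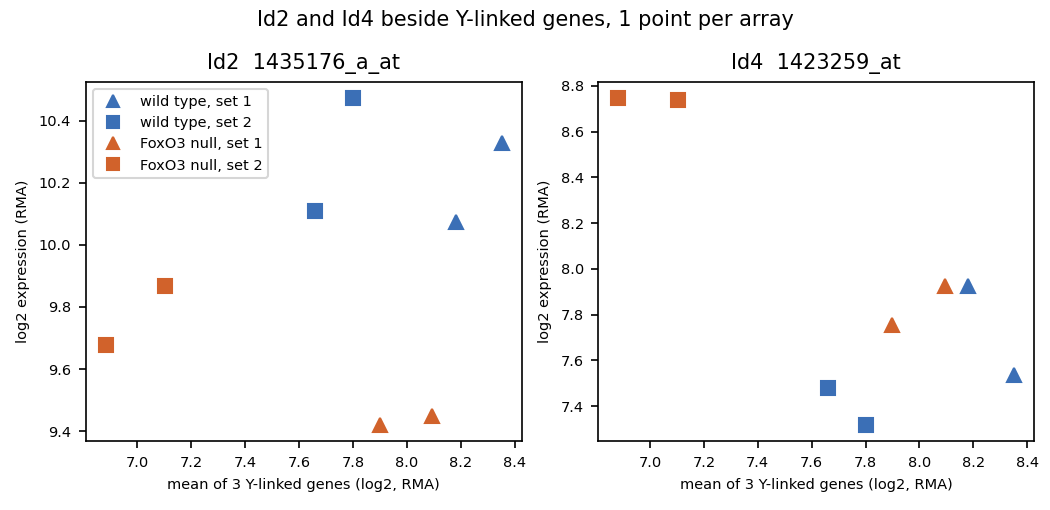
Level of Id2 probe set 1435176_a_at (left) and Id4 probe set 1423259_at (right) in each array (y axes, log2 expression by RMA) against the mean of 3 Y-linked genes in the same array (x axes, log2); triangles are set 1 and squares set 2, blue wild type and orange FoxO3 null. The 2 null arrays of set 2 have the lowest Y-linked means, 6.88 and 7.10, and the highest Id4, while Id2 is lower in null arrays of both sets.

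Id1 and Id3, the members most often used as readouts of BMP signalling, gave no call. Id1 (1425895_a_at) read 8.95 and 9.23 in wild type set 1, 9.41 and 9.43 in wild type set 2, 9.05 and 9.05 in null set 1 and 9.29 and 9.22 in null set 2. The genotypes overlapped in set 1, and in set 2 the null pair was slightly below. The difference was -0.10 ± 0.07 (SE, limma adjusted p = 0.601), with a 95% interval of -0.26 to 0.05.

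Id3 (1416630_at) read 10.44 and 10.65 in wild type set 1, 11.06 and 11.01 in wild type set 2, 10.66 and 10.78 in null set 1 and 10.83 and 10.77 in null set 2. Both null arrays were thus above wild type in set 1 and below it in set 2. Over both sets the difference was -0.03 ± 0.09 (adjusted p = 0.940; 95% interval -0.23 to 0.17). In set 1 it was 0.18 and in set 2 -0.23, and the difference between sets did not pass (interaction unadjusted p = 0.0101, adjusted p = 0.462). The wild type arrays of set 2 were the highest for both genes.

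**Figure D3:**
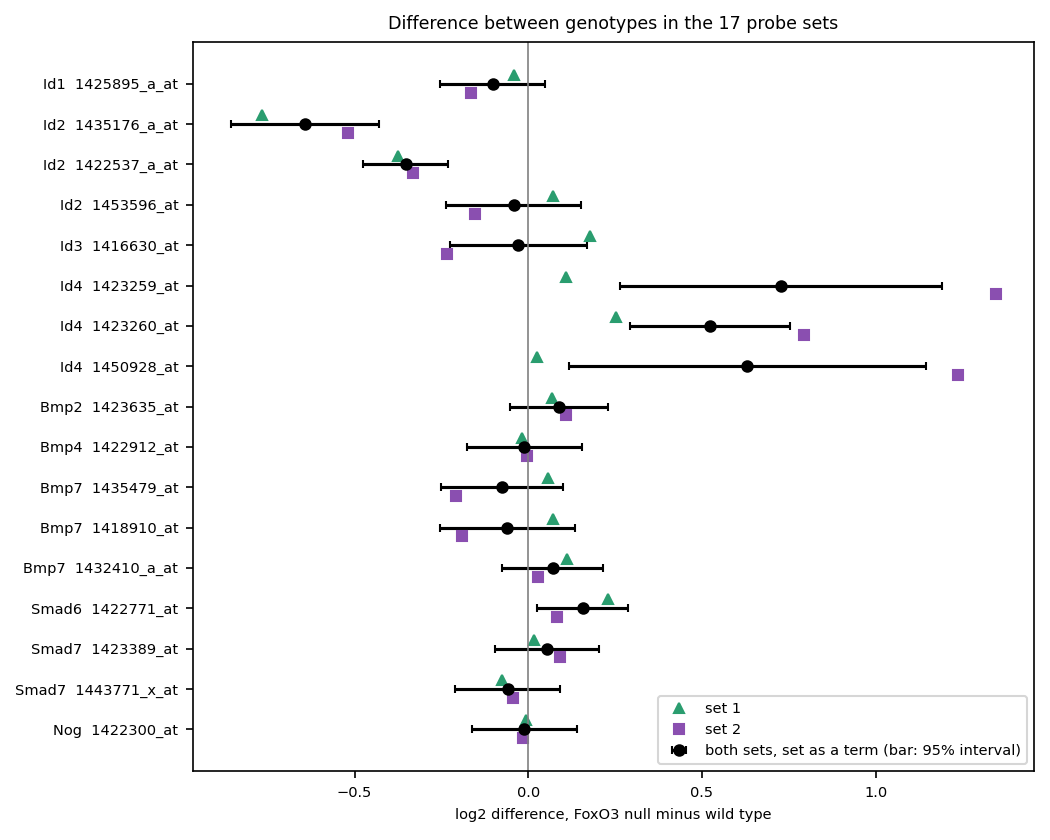
Log2 difference between FoxO3 null and wild type (x axis) for each of the 17 probe sets (y axis); black points are the fit over both sets with 95% intervals that are not adjusted for the number of probe sets, green triangles set 1 and purple squares set 2. Id2 1435176_a_at and 1422537_a_at lie at -0.64 and -0.35, the 3 Id4 probe sets have set 2 values of 0.79 to 1.35, and the 9 probe sets below them lie between -0.08 and 0.16.

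Among the ligands, Bmp7, which is made by the choroid plexus and meninges, had 3 probe sets above the median level of the array. Its probe set 1435479_at read 8.18, 7.97, 8.35 and 8.24 in wild type arrays 1_1, 1_2, 2_1 and 2_2 and 8.14, 8.12, 8.19 and 7.98 in the null arrays in the same order. The groups overlapped, and the difference was -0.08 ± 0.08 (SE, adjusted p = 0.772). Probe set 1418910_at ran from 8.04 to 8.25 in wild type and from 7.89 to 8.33 in null arrays (difference -0.06 ± 0.09), and 1432410_a_at from 7.47 to 7.74 and from 7.61 to 7.78 (0.07 ± 0.07). In set 2 both null arrays were below both wild type arrays at 1435479_at and 1418910_at, but the within-set test did not pass (adjusted p = 0.450 and 0.559).

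Bmp2 and Bmp4, the ligands most used to drive cultured neural stem cells into quiescence or glia, were dim, at percentiles 11.7 and 30.9 of all probe sets. Bmp2 read 4.53, 4.55, 4.76 and 4.68 in wild type arrays and 4.58, 4.65, 4.71 and 4.96 in null arrays (difference 0.09 ± 0.06, adjusted p = 0.632). Bmp4 read 5.33, 5.51, 5.34 and 5.22 and, in null arrays, 5.38, 5.42, 5.43 and 5.12 (-0.01 ± 0.07, adjusted p = 0.974). Both pairs of groups overlapped. Background signal compresses differences at dim probe sets, so these values limit a change in the RNA less tightly than those of bright ones.

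The inhibitory Smads, feedback products of the pathway, gave no call either. Smad6 read 4.73, 4.83, 4.91 and 4.93 in wild type and 5.05, 4.97, 4.95 and 5.06 in null arrays (dim, percentile 19.2). The 4 null arrays were above the 4 wild type arrays, but by only 0.16 ± 0.06 (SE, unadjusted p = 0.0241, adjusted p = 0.304). Smad7 at its brighter probe set 1423389_at read 6.31, 6.39, 7.11 and 6.85 in wild type and 6.37, 6.36, 7.01 and 7.14 in null arrays (0.05 ± 0.07, adjusted p = 0.817). The genotypes overlapped in each set while the sets did not. Its very dim probe set 1443771_x_at, whose probes may also match other transcripts, differed by -0.06 ± 0.07.

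Nog read 5.42, 5.28, 5.31 and 5.30 in wild type and 5.42, 5.26, 5.17 and 5.40 in null arrays (-0.01 ± 0.07, adjusted p = 0.972). Noggin, the antagonist that lets neurogenesis go on beside BMP-producing cells, was thus dim (percentile 30.3) and overlapping. Over the 9 probe sets of Bmp2, Bmp4, Bmp7, Smad6, Smad7 and Nog, 0 passed with limma over both sets, within a set or in the interaction. The lone unadjusted p under 0.05 over both sets was that of Smad6. Their 95% intervals together ran from -0.25 to 0.29.

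**Figure D4:**
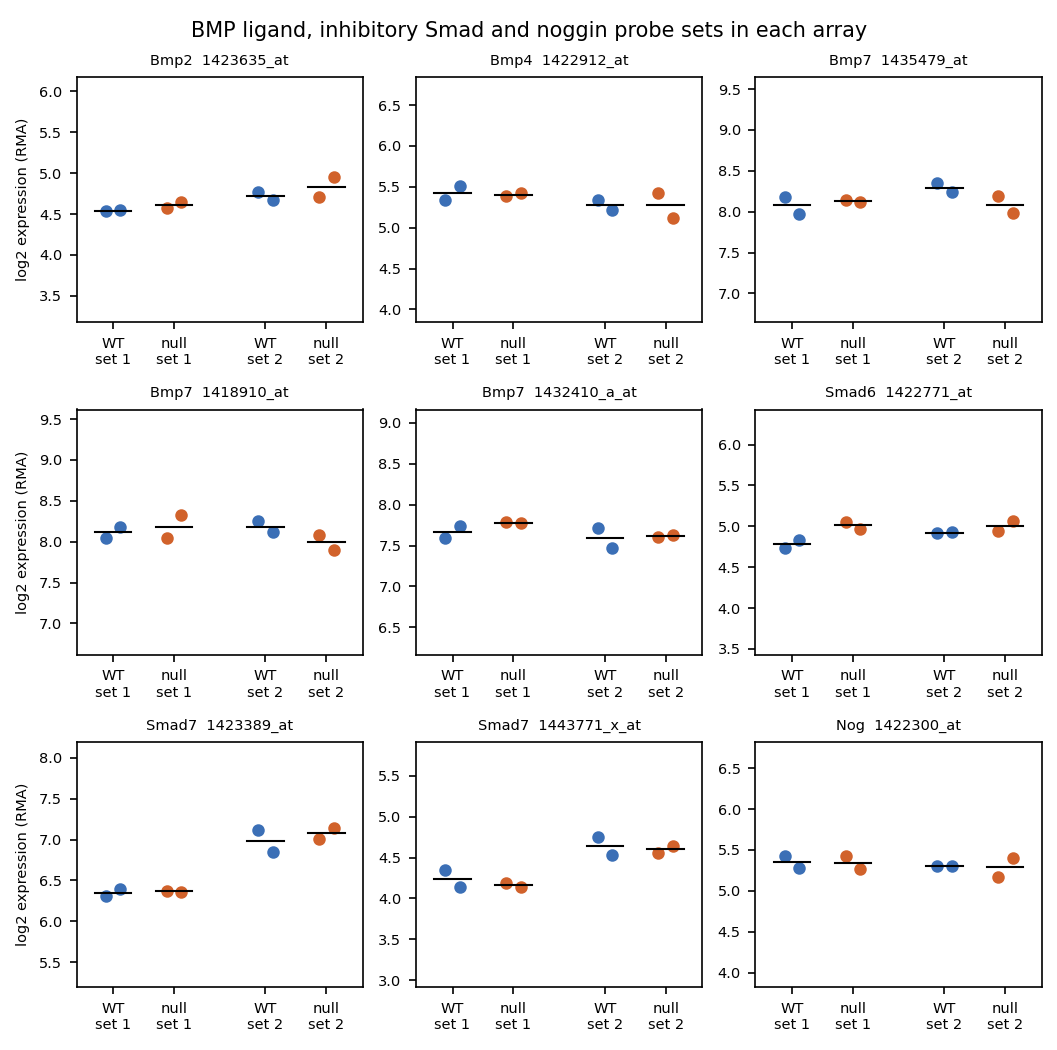
Level of the 9 probe sets of Bmp2, Bmp4, Bmp7, Smad6, Smad7 and Nog in each array (y axis, log2 expression by RMA; every panel spans the same range) by set and genotype (x axis); points are single arrays, wild type (WT) blue and FoxO3 null orange, and lines are means of 2 arrays. Genotypes differ by -0.08 to 0.16 and both Smad7 probe sets are higher in set 2.

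Between the sets, 6 of the 17 probe sets differed, a share near the 38.4% of all probe sets that differed in either direction. All 6 were higher in set 2, beside 19.5% of all probe sets that were higher. The largest was Smad7, higher in set 2 by 0.67 ± 0.07 (SE, adjusted p = 5.0e-05) at 1423389_at and by 0.42 ± 0.07 at 1443771_x_at. Id2 at 1422537_a_at was higher by 0.60 ± 0.06, Id3 by 0.29 ± 0.09, Id1 by 0.26 ± 0.07 and Bmp2 by 0.20 ± 0.06. For Id4, Bmp4, Bmp7, Smad6 and Nog no probe set passed.

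The rest of the pathway, read from the brightest probe set of each gene, held few calls. Over 8 lists of ligands, receptors, Smads, antagonists, response genes, bHLH partners and the neighbouring TGF-beta branch, 82 of 88 genes were measured, and 2 rose and 1 fell, beside 1.12% of all genes (0.242% higher and 0.874% lower). The median log2 difference over these genes was 0.0084, and over all genes 0.0091. When the 2 arrays of each pair were averaged first, the 3 calls were lost (limma adjusted p of 0.0834 to 0.269).

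BMP receptors had 0 of 7 genes passing, with a median log2 difference of 0.0075. The smallest p-values were those of the type I receptors Bmpr1a (0.07 ± 0.05 (SE), limma adjusted p = 0.608) and Acvr1 (-0.06 ± 0.08). Of the 4 Smads that carry the signal 0 passed (median -0.11), among them Smad1 at -0.14 ± 0.07 and the shared partner Smad4 at -0.11 ± 0.06. Of 9 measured ligands 0 passed (median 0.02, from -0.10 at Bmp10 to 0.09 at Bmp2).

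Of 14 antagonists and modulators outside the cell, Sostdc1 rose, a secreted antagonist of BMP and Wnt ligands. It read 6.78, 6.64, 6.58 and 6.43 in wild type and 7.03, 7.36, 7.13 and 6.87 in null arrays, so the groups did not overlap. The rise was 0.49 ± 0.09 (SE, limma adjusted p = 0.0314), 1.40-fold, with 0.49 in each set. It passed without null array 1_1 (0.0275) and missed the threshold without any other single array (0.0547 to 0.0935). Next came Crim1, a membrane protein that binds BMPs (0.42 ± 0.12, adjusted p = 0.180), and the list median was 0.07.

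Of 9 intracellular brakes 0 passed (median 0.08). Bambi, a decoy receptor that is itself induced by BMP, had the smallest p. It read 6.36, 6.44, 7.09 and 7.04 in wild type and 6.75, 6.68, 7.26 and 7.20 in null arrays, higher in each set in both null arrays, with a difference of 0.23 ± 0.06 (SE, limma adjusted p = 0.105). Among 13 response genes outside the Id family, which include Smad6, Smad7 and Bambi, the median was 0.01 and Hey1 fell.

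Hey1, a bHLH repressor driven by Notch and by BMP, read 10.09, 10.22, 10.09 and 10.14 in wild type and 9.82, 9.78, 9.90 and 9.88 in null arrays, with no overlap. It fell by 0.29 ± 0.06 (SE, limma adjusted p = 0.0473) and missed the threshold in each fit without 1 array (0.0907 to 0.129). Of the 15 measured bHLH partners and targets of Id proteins it was the only one to pass (0 rose, median -0.05). Its relative Hey2 differed by -0.28 ± 0.06 (adjusted p = 0.0799; 0.0498 when only 1 probe set per gene was tested). Hey2 lies on chromosome 10, 11.3 megabases from Foxo3. The E protein genes Tcf3, Tcf4 and Tcf12 and the oligodendrocyte factors Olig1 and Olig2, the partners Id2 and Id4 are known for, did not pass (0.20, -0.05, -0.06, 0.05 and -0.04).

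In the TGF-beta and activin branch 1 of 15 genes rose (median 0.0065). Tgfbr2, the type II receptor for TGF-beta, read 8.46, 8.56, 8.75 and 8.71 in wild type and 8.92, 9.16, 8.92 and 9.27 in null arrays, with no overlap. The rise was 0.45 ± 0.09 (SE, limma adjusted p = 0.0475), and it held without null array 2_1 (0.0214) but without no other single array (0.0660 to 0.172). With each array centred on its median it was 0.44 (adjusted p = 0.0554). The activin receptor Acvr1b differed by -0.19 ± 0.06 (adjusted p = 0.196).

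**Figure D5:**
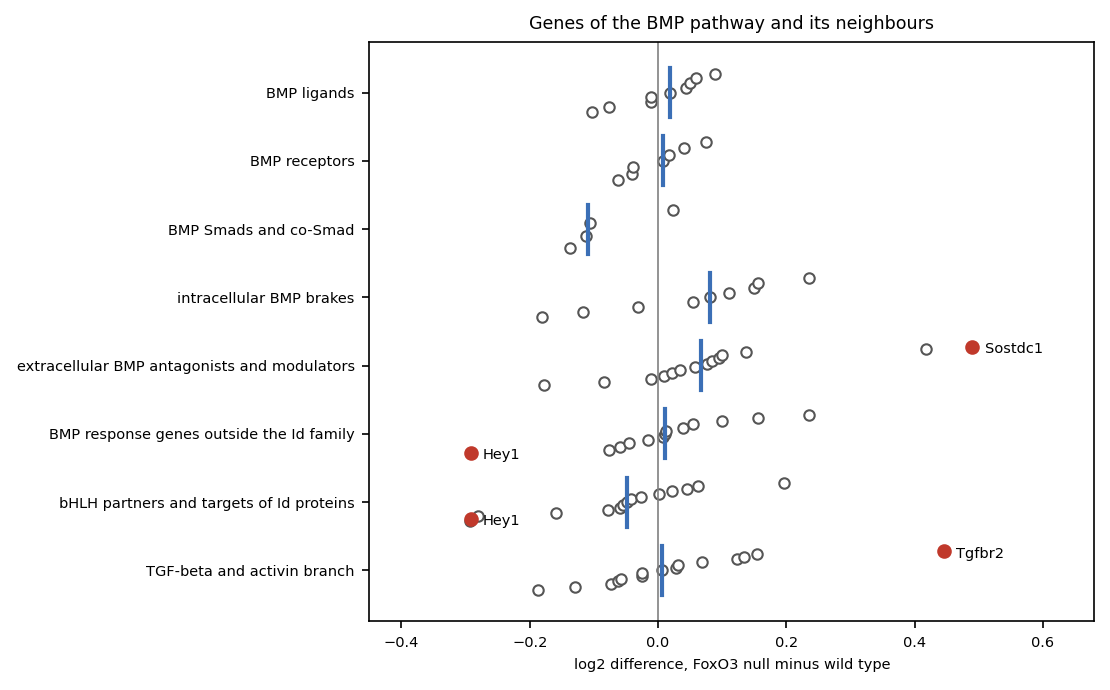
Log2 difference between FoxO3 null and wild type (x axis) of each measured gene, 1 point per gene, in 8 gene lists (y axis); filled red points passed at an adjusted p under 0.05, open points did not, and blue bars are list medians. Sostdc1 at 0.49, Tgfbr2 at 0.45 and Hey1 at -0.29, which is in 2 lists, passed.

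The genes whose pattern was most like each Id gene were found from Pearson correlations of brightest probe sets over the 8 arrays, after the mean of each set was taken from its arrays. They are descriptions, since the highest of 18193 correlations over so few arrays is high by selection and all points share the genotype contrast. For Id2 they were Gad1, the enzyme that makes GABA (r = 0.988), the amino acid transporter Slc38a2 (0.986) and the zinc finger gene Zbtb4 (0.984). For Id4 they were Ezh2, the Polycomb methyltransferase (0.994), Smcr8 (0.992) and Nbas (0.988), whose differences were small (0.08, 0.11 and 0.15). For Id1 they were Pck1, Galnt16 and Pop5 (0.970 to 0.991), and for Id3 Fam181b, Letm2 and 4931406C07Rik (0.977 to 0.990).

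The members also differed in how they moved together, again after removing the set means and over 8 arrays that share the genotype contrast. The bright probe sets of Id2 had r = 0.939 with each other and the 3 of Id4 from 0.825 to 0.946. Id1 and Id3 had r = 0.682. Id2 (1435176_a_at) and Id4 had r of -0.512 to -0.766, and Id2 and Smad6 -0.828. Pairs of genes without a call reached similar sizes, such as Bmp4 and Nog (-0.85) and Id3 and Bmp7 1418910_at (0.836).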

How the data were processed

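Each sample's biotin-labelled RNA went onto its own Mouse430_2 array, per the labels' protocols. The authors deposited 1 table of log2 expression values for the 8 arrays, which the submitters' processing notes credit to RMA. RMA corrects background, equalises the arrays' distributions and summarises each probe set. Its version, and whether all arrays were processed together, are not stated in the labels. Changes are therefore relative to the other genes of an array. Of 45101 probe sets, 64 controls were left out. The platform annotation gives 1 symbol to 34945 probe sets, several to 932 and none to 9160; 0 probe sets of the 10 genes carry several symbols. All 10 genes matched the mouse gene table (GRCm38.p6) by Entrez ID.

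Genotypes, read from the titles, were compared by limma (version 3.58.1, R version 4.3.3; lmFit and eBayes, two-sided) with set as a term, FoxO3 null minus wild type, and Benjamini-Hochberg adjustment over all 45037 probe sets; calls were made at an adjusted p under 0.05. Values within a set and the interaction came from 1 fit with set and genotype as 4 groups. Lists were read in the same fit by each gene's brightest probe set of 18193. No filter on dim probe sets was used. The fits were tested on simulated data with independent noise in each array, which cannot show how they behave if paired arrays are technical repeats. Members and lists were chosen with earlier results of these data known. Genes named are all probe sets of the 10 genes and Foxo3, and from each list the passing genes or, where fewer than 2 passed, the 2 with the smallest p, plus the 3 genes most like each Id gene; Tcf3, Tcf4, Tcf12, Olig1, Olig2 and the markers were named after their values were seen. Alternatives covered the set term, pairing, normalization, dim probe sets, the variance model, array means, a random block, a Y-linked covariate and leaving out each array. For single probe sets, a looser threshold on the adjusted p was counted as an alternative as well.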

Additional observations from a re-analysis of the deposited data

Results flagged for a closer look

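At Bmp4 (1422912_at) 1 null array, 2_2 at 5.12, lay apart from the other 3 (5.38 to 5.43), with a gap of 0.853 of the group's range, above Dixon's critical value for 4 samples. At Smad4 (1422487_at) null array 1_1 at 11.20 lay below the others (11.28 to 11.29), a gap of 0.858 of the range. These were 2 flags in 64 groups looked at, and chance flags about 1 in 20. Id3 (1416630_at) had both null arrays above wild type in set 1 and below it in set 2, and its difference changed by -0.413 from set 1 to set 2; the interaction test did not pass (limma adjusted p = 0.462).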

How the results depend on the processing

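Over 378 alternatives of the 17 single probe sets, 342 kept the side of the threshold, 25 lost a call, all at Id2, 11 gained one, all at Id4, and 0 called values changed sign; 24 uncalled differences did. The number of the 17 passing, 2, became 0 with no set term, in set 1 alone, with no moderation, when each pair of arrays was averaged, with the Y-linked covariate and with the replicate block (0), and 1 with 1 probe set per gene; without 1 array it was 0 to 2. The equal numbers do not pair the arrays (correlation of deviations 0.0739 in set 1 and -0.0582 in set 2), so the replicate block, in which Id2 had adjusted p of 0.0601 and 0.0535, is given only here. With no moderation limma passed 0 of all probe sets (5134 at an unadjusted p under 0.05), and with the covariate 0 (2890). The 3 list genes became 0 with no set term, in each set alone and with the covariate, and 0 to 1 without 1 array. The calls of Sostdc1, Hey1 and Tgfbr2 were also lost with the replicate block (limma adjusted p = 0.0588, 0.121 and 0.0755), with no moderation (0.253, 0.190 and 0.278) and with averaged pairs (0.0834, 0.269 and 0.128). The interaction count, 0, became 1 with quantile normalization and with a variance trend (Id4 1423259_at, adjusted p = 0.0476 and 0.00317), and 0 to 1 without 1 array. Within set 1 the count of 0 became 2 with the variance trend (both Id2) and 0 to 1 without 1 array, and within set 2 the count of 3 became 4 with the variance trend (Id2 1435176_a_at gained, adjusted p = 0.021) and 1 to 3 without 1 array. The 6 probe sets that differed between sets were 4 to 6 without 1 array and 7 with quantile normalization. Of 104 alternatives of list medians 6 moved past the spread between arrays, and none exceeded 0.189 in size. The number of arrays and the dim signal of 6 of the 17 probe sets limit the precision.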
